A study of Homo sapiens with 4 samples.

Results

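ISG15 and the enzymes that attach it to and remove it from other proteins were followed in HT-29 cells, a human line from a colorectal adenocarcinoma, with and without overexpressed TRIM40. The members were the 6 genes ISG15, UBA7, UBE2L6, HERC5, HERC6 and USP18, matched by symbol among 27685 genes, and each was the sum of its RefSeq transcripts. RNA-seq had been performed in 2 independent experiments, and each held 1 library of cells with a control vector and 1 of cells that stably overexpressed N-terminally Myc-tagged TRIM40, an E3 ligase of the TRIM family. The labels give the genotype of the control cells as WT and that of the others as TRIM40 overexpression. Per the study's methods, human TRIM40 had been cloned in pMSCV, a retroviral vector, and transduced cells were selected with puromycin. No other treatment is named for the cells of either condition. Whether the stable cells were 1 clone is not given in the sources used here. Experiments 1 and 2 are replicates 1 and 2 of the labels.

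ISG15 is a ubiquitin-like protein that interferon induces in most cell types, epithelial cells included. It is joined to lysines of target proteins by a cascade like that of ubiquitin. UBA7 is its activating enzyme, UBE2L6 its conjugating enzyme and HERC5 its main ligase in human cells, HERC6 is a close relative of HERC5, and USP18 cleaves ISG15 from its targets and also restrains signalling at the interferon receptor. Interferon acts on such genes through the factor ISGF3, which binds interferon-stimulated response elements (ISREs), in which GAAA repeats stand 2 bases apart.

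The sequences shown first are the stretches of the ISG15 and HERC5 promoters that carry this repeat, because these were the member promoters in which it was found. RefSeq promoter windows, from 250 bases before to 50 bases after a gene start on build GRCh38.p14, were at hand for 4 of the 6 members, with 2 windows for UBE2L6. The ISRE-like motif, GAAA followed by any 2 bases and by GAAA again, was searched on both strands and was in 3.57% of 35116 windows. The ISG15 window held 2 overlapping matches on the strand of the gene, and the HERC5 window held 3 on the opposite strand, of which 2 overlap. No match was found in the windows of UBE2L6 and HERC6. The GAS-like motif TTCNNNGAA was in 7.66% of all windows and in none of these 5. In the sequences, which run 5′ to 3′ on the strand of the gene, capitals mark the bases of the matches.
ISG15 promoter, chr1:1013359-1013424, plus strand: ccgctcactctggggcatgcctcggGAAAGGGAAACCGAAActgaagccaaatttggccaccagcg
HERC5 promoter, chr4:88456969-88457079, plus strand: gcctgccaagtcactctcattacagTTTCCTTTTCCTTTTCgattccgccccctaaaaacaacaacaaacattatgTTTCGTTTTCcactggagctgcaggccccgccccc

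**Figure D1:**
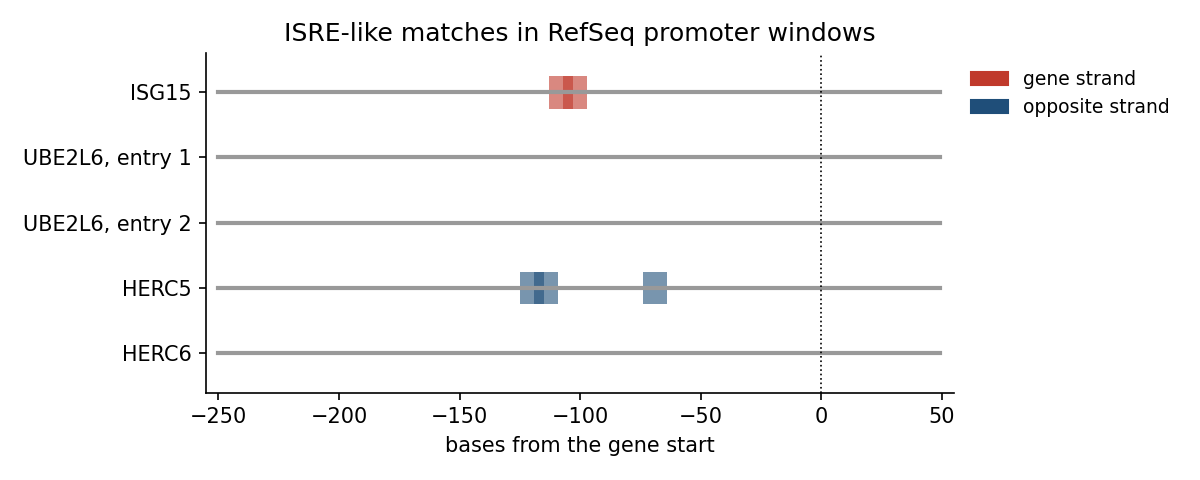
Position of ISRE-like matches in the RefSeq promoter windows of 4 members. The x axis gives bases from the gene start, each grey line is 1 window, and filled boxes are matches on the strand of the gene (red) or the opposite strand (blue). The matches lie between positions -113 and -98 in ISG15 and between -125 and -65 in HERC5, where position 0 is the gene start.

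The labelled cells and the vector were checked in the libraries. Libraries held between 60954602 and 67424698 reads assigned to transcripts. With the control vector TRIM40 had 0 reads in each experiment, and with Myc-TRIM40 it had 272646 in experiment 1 and 110665 in experiment 2. After TMM normalization it was 2.53 times as high in experiment 1. All 10 colon epithelium markers examined had reads in every library, with a summed FPKM between 6829 and 9402. The keratins KRT8 and KRT18 led that sum, with 3355 and 2391 FPKM in the control of experiment 1. The colon transcription factors were low, with 36 to 46 reads for CDX1 and 184 to 205 for CDX2. FPKM is the read number scaled by transcript length and library total. Of 10 markers of blood, endothelial, fibroblast and liver cells, CD3E, ALB and COL1A2 were among those with 0 reads in all 4 libraries, whereas the monocyte marker CD14 had 148 to 297 reads, the collagen gene COL1A1 had 123 to 352 and the endothelial marker PECAM1 had 17 to 31. The part of these in the results was not tested, and the summed FPKM of the 10 was between 2.13 and 3.54.

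All 6 members were higher with Myc-TRIM40 in experiment 1, by 3.97-fold (HERC5) to 59.6-fold (UBE2L6) in TMM-normalized reads. In experiment 2 the 5 enzymes were higher by 1.54-fold (HERC5) to 2.76-fold (UBE2L6), while ISG15 itself stood at 82.4% of its control. Every member had a smaller ratio in experiment 2 than in experiment 1. With the experiment number as a block, no member passed an adjusted p of 0.05 in edgeR's quasi-likelihood test over 14868 genes (0 of 6 members, against 0.0404% of genes tested that were higher), and 5 of 6, all but ISG15, had an unadjusted p under 0.05, against 3.41% of genes tested that were higher. DESeq2 called 1 of 6, USP18, against 0.287% of its genes, and gave 5 of 6 an unadjusted p under 0.05, against 1.92%. Without the block edgeR called 0 of 6 and gave 4 of 6 an unadjusted p under 0.05, against 0.861% of genes tested. HERC6, UBE2L6 and USP18 were among the interferon-stimulated genes that the study chose for display from these samples, and ISG15 was in its list of changed genes, so their direction is not independent evidence. In bulk RNA a change in the share of cells expressing a gene and a change in RNA per cell cannot be told apart.

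The modifier ISG15 (Entrez gene 9636) lies on chromosome 1 from 948847 to 949919 in the files, whose build is hg19 per the submitters' processing notes, and is read through 1 transcript of 666 bases. Its level in experiment 1 was 77.3 FPKM in the control and 591 FPKM with Myc-TRIM40. The control of experiment 2 had 123 FPKM and the Myc-TRIM40 library 110.3 FPKM. The Myc-TRIM40 library of experiment 1 stood above the other 3, which lay close together, so the conditions overlapped. The reads behind these levels were 3220 and 24676 in experiment 1 and 5670 and 4717 in experiment 2, for control and Myc-TRIM40. The normalized ratio was 7.46 (95% interval from 7.19 to 7.74) in experiment 1 and 0.82 (0.79 to 0.86) in experiment 2. These intervals are exact binomial ones and cover counting error only, since reads without molecular identifiers are not independent molecules. The edgeR log2 fold change over both experiments was 1.31 (standard error 0.67, unadjusted p = 0.0831, adjusted p = 0.888). It rested on experiment 1, since the log2 fold change of experiment 2 alone was -0.28.

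UBA7, the enzyme that activates ISG15, lies on chromosome 3 from 49842638 to 49851391 and has 1 transcript of 3313 bases. In experiment 1 it went from 0.93 FPKM (192 reads) to 4.42 FPKM (918 reads). The level in experiment 2 was 0.50 FPKM (117 reads) in the control and 1.10 FPKM (235 reads) with Myc-TRIM40. Both Myc-TRIM40 libraries were above both controls, although the experiment 2 library exceeded the experiment 1 control only slightly. The normalized ratio was 4.66 (95% interval from 3.98 to 5.47) in experiment 1 and 1.99 (1.59 to 2.51) in experiment 2. UBA7 had the smallest p of the members in edgeR, with a log2 fold change of 1.62 (standard error 0.33, unadjusted p = 0.00104, adjusted p = 0.351). The microRNA gene MIR5193 lies within its position and had fewer than 10 reads in every library.

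UBE2L6, which takes ISG15 over from UBA7, lies on chromosome 11 from 57319128 to 57335803. It had the largest ratio of the members in each experiment. Its level in experiment 1 was 0.53 FPKM (45 reads) in the control and 34.6 FPKM (2754 reads) with Myc-TRIM40. For experiment 2 the values were 0.51 FPKM (57 reads) and 1.96 FPKM (159 reads). Both controls were therefore alike and both Myc-TRIM40 libraries were above them, that of experiment 1 by far the most. The normalized ratio was 59.6 (95% interval from 44.4 to 81.9) in experiment 1 and 2.76 (2.03 to 3.81) in experiment 2. The edgeR log2 fold change was 3.73 (standard error 0.94, unadjusted p = 0.00376, adjusted p = 0.587), the largest standard error among the members.

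The 2 transcripts of UBE2L6 did not take the reads in the same way in every library. Variant 1 (NM_004223, 1261 bases) had 33 reads in the control and 2659 with Myc-TRIM40 in experiment 1, and variant 2 (NM_198183, 1620 bases) had 12 and 95 reads. In experiment 2 variant 1 had 0 reads in the control and 159 with Myc-TRIM40, and variant 2 had 57 and 0. For counting error a value of 0 allows up to 3 reads at these depths. That bound does not cover reads of a variant that were assigned to the other variant. All reads of the gene thus went to variant 2 in 1 control library and to variant 1 in the Myc-TRIM40 library of the same experiment. Their spans on the chromosome differ at 1 end only, and the division of reads between them is an estimate made by the authors' software. The FPKM of this gene depends on that division, because the variants differ in length, whereas the summed reads do not.

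HERC5, the ISG15 ligase, and its relative HERC6 are neighbours on chromosome 4. HERC6 spans 89299891 to 89364249 and HERC5 spans 89378268 to 89427319, with 14019 bases between them. HERC5 was the lowest member in all 4 libraries. It was at 0.38 FPKM (83 reads) in the control and 1.53 FPKM (338 reads) with Myc-TRIM40 in experiment 1. In experiment 2 it was at 0.18 FPKM (45 reads) and 0.31 FPKM (70 reads). Its Myc-TRIM40 library of experiment 2 thus lay below the control of experiment 1, so the conditions overlapped although the direction within each experiment was the same. The normalized ratio was 3.97 (95% interval from 3.11 to 5.10) and 1.54 (1.05 to 2.29) in experiments 1 and 2. The edgeR log2 fold change was 1.34 (standard error 0.41, unadjusted p = 0.0104, adjusted p = 0.888).

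HERC6 was higher than its neighbour in every library. Its level was 1.88 FPKM (457 reads) in the control and 28.8 FPKM (7024 reads) with Myc-TRIM40 in experiment 1. In experiment 2 the control had 1.68 FPKM (453 reads) and the Myc-TRIM40 library 4.34 FPKM (1081 reads). The controls nearly coincided, and both Myc-TRIM40 libraries stood above them. In experiment 2 with Myc-TRIM40, 92 reads were assigned to variant 2 (NM_001165136), which had 0 reads in the other 3 libraries, and all others went to variant 1 (NM_017912). The normalized ratio was 15.0 (95% interval from 13.6 to 16.5) in experiment 1 and 2.36 (2.12 to 2.64) in experiment 2. In edgeR the log2 fold change was 2.58 (standard error 0.56, unadjusted p = 0.00160, adjusted p = 0.433).

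USP18, the protease that removes ISG15, lies on chromosome 22 from 18632758 to 18660162 and has 1 transcript of 2035 bases. It was at 3.24 FPKM (413 reads) in the control and 20.1 FPKM (2561 reads) with Myc-TRIM40 in experiment 1. In experiment 2 it was at 2.66 FPKM (376 reads) and 4.88 FPKM (638 reads). Both Myc-TRIM40 libraries were above both controls, and the controls were similar. The normalized ratio was 6.04 (95% interval from 5.44 to 6.72) in experiment 1 and 1.68 (1.48 to 1.92) in experiment 2. The log2 fold change was 1.68 in edgeR (standard error 0.41, unadjusted p = 0.00299, adjusted p = 0.543) and 1.65 in DESeq2 (adjusted p = 0.0114), and over the 6 fits run its adjusted p was between 0.0114 and 1.00. USP41, a gene nearly identical to USP18, has no row of its own in the tables, so reads from such a copy could be counted as USP18.

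**Figure D2:**
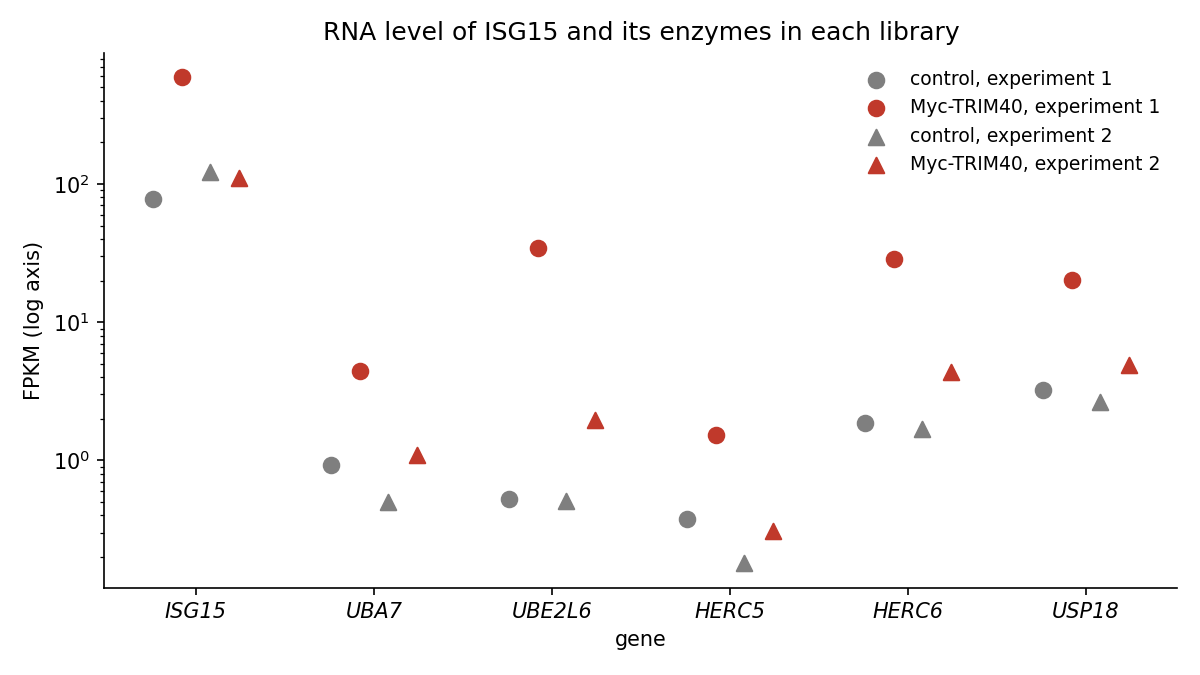
FPKM of the 6 members in each library. The y axis is logarithmic, grey points are control and red points Myc-TRIM40 libraries, and circles and triangles are experiments 1 and 2, with 1 library per point. For UBA7, UBE2L6, HERC6 and USP18 both red points lie above both grey points, whereas ISG15 and HERC5 overlap.

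In normalized reads, 4 of 6 members had both Myc-TRIM40 libraries above both controls, against 11.0% of genes tested, and 5 of 6 were higher within each experiment, against 28.6% of genes tested. On the ratio of FPKM + 1, which understates the change of low genes such as HERC5, 6 of 6 members reached 1.5-fold in experiment 1 and 3 of 6, UBE2L6, HERC6 and USP18, in experiment 2. The shares of genes tested were 2.78% and 8.54%. Those 3 members reached 1.5-fold in both experiments, against 0.457% of genes tested, and are the 3 that the study displayed. The median log2 fold change of the members in TMM-normalized CPM, which is the read number relative to the library size, was 2.74 in experiment 1 and 0.86 in experiment 2. Over all genes tested it was 0.00 and 0.03. Among 14868 genes ordered by this fold change, UBE2L6 held rank 12 in experiment 1 and rank 353 in experiment 2, and HERC6 held ranks 42 and 510. ISG15 held rank 103 in experiment 1 and rank 10928 in experiment 2.

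**Figure D3:**
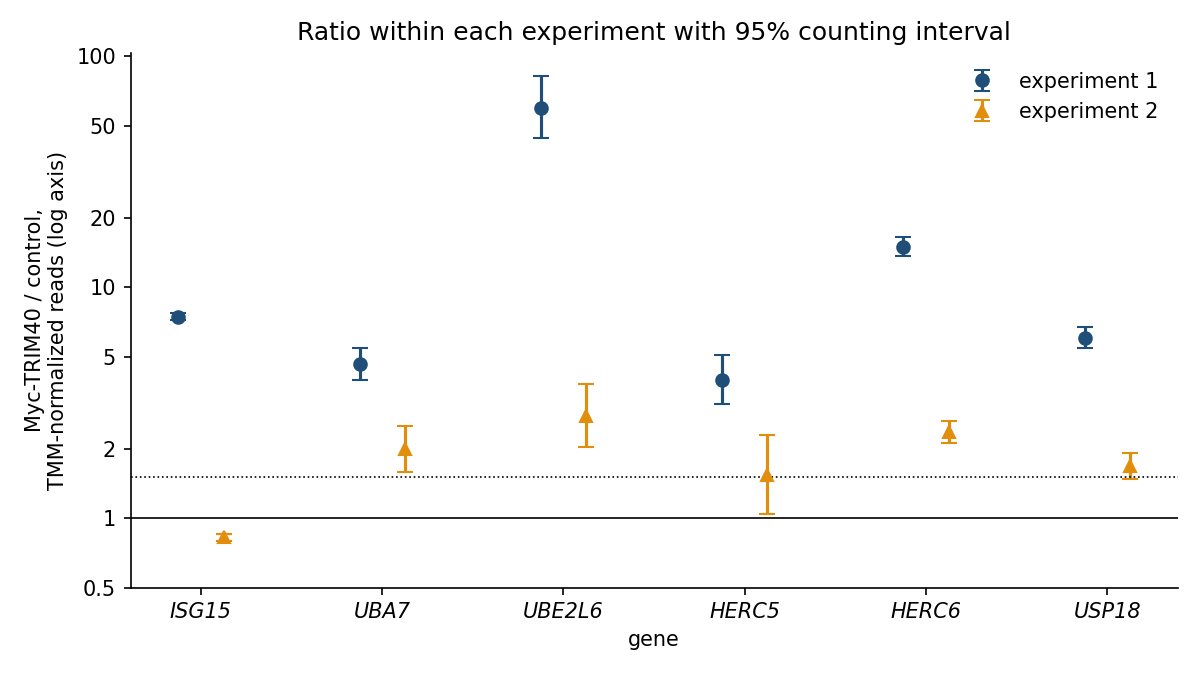
Ratio of Myc-TRIM40 to control in TMM-normalized reads within each experiment. The y axis is logarithmic, points are ratios of 1 library to 1 library, bars are exact 95% intervals that cover counting error only, the solid line is a ratio of 1 and the dotted line 1.5. The 5 enzymes lie above 1 in both experiments, from 1.54 upwards, and ISG15 lies at 7.46 and 0.82.

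The ratio in experiment 1 was 9.05 times that in experiment 2 for ISG15, 21.6 times for UBE2L6, 6.33 times for HERC6, 3.59 times for USP18, 2.57 times for HERC5 and 2.34 times for UBA7. Each experiment had 1 library per condition, so these differences were not tested. The controls of the 2 experiments were closer to each other, with the FPKM of experiment 2 at 0.96 times that of experiment 1 for UBE2L6, 0.89 times for HERC6 and 0.82 times for USP18. ISG15 was 1.59 times as high in the control of experiment 2, and UBA7 and HERC5 were at 0.55 and 0.48 times. TRIM40 RNA was also higher in experiment 1, and its part in the differences cannot be told apart from anything else that differed between the 2 experiments.

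**Figure D4:**
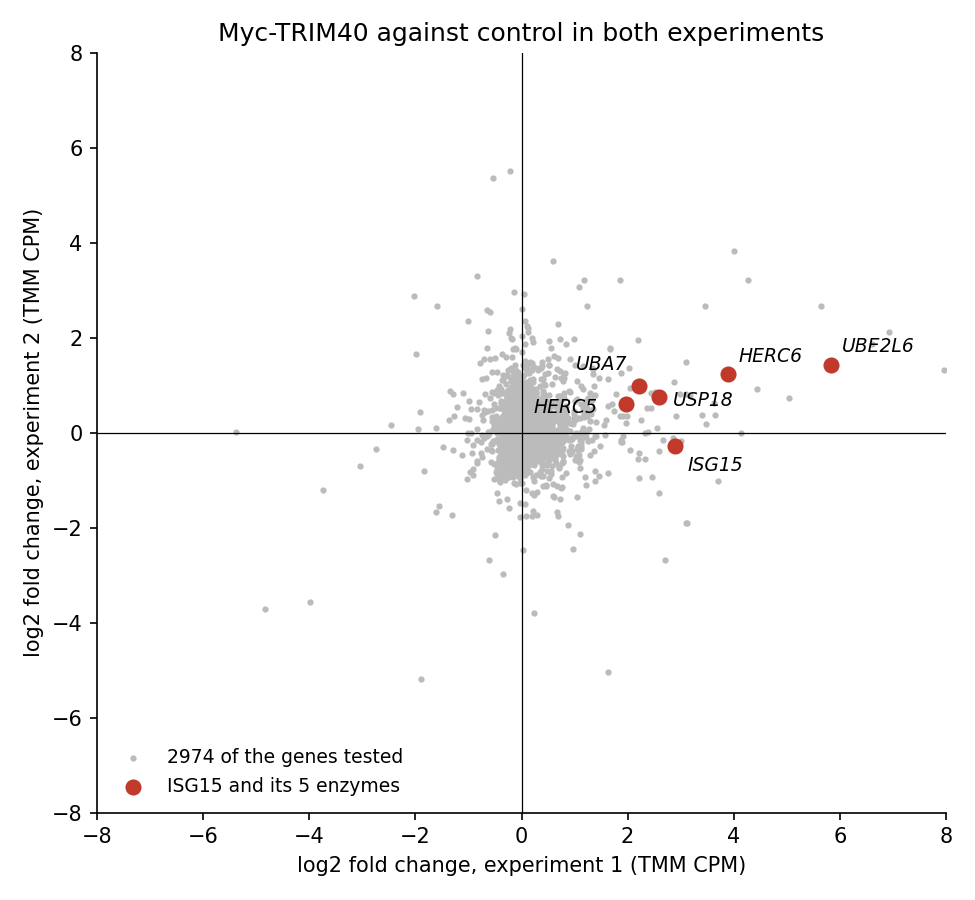
Log2 fold change of Myc-TRIM40 over control in experiment 1 (x axis) and experiment 2 (y axis), from TMM-normalized CPM. Grey points are 2974 of the genes tested, taken at even steps of the table, and red points the 6 members. The members lie between 1.96 and 5.84 on the x axis and between -0.28 and 1.44 on the y axis, with ISG15 the one below 0.

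In experiment 2 the direction of ISG15 depended on the scale. Its log2 fold change was -0.15 on FPKM + 1, -0.28 on TMM-normalized CPM and 0.08 on TPM + 1, where TPM scales the FPKM of each library to a common total. The sum of FPKM was 552270 for the control and 469117 for Myc-TRIM40 in experiment 2, and the median log2 fold change of all genes tested was 0.08 on FPKM + 1 and 0.27 on TPM + 1. On all 3 scales ISG15 was thus below the median gene of that experiment. The 5 enzymes were above 0 and above the median gene on the 3 scales. Of genes tested, 61.7% were above 0 on FPKM + 1, 52.1% on TMM-normalized CPM and 78.0% on TPM + 1.

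Transcript length moved with the fold changes of experiment 2. Among the 480 genes tested whose mean transcript length was 0.8 to 1.2 times that of ISG15, the median log2 fold change in TMM-normalized CPM was -0.60 in experiment 2 and -0.04 in experiment 1. ISG15 was 0.32 above that median in experiment 2, and 73.1% of those genes had a lower fold change. In experiment 1 it was 2.94 above the median of the same genes. The other short gene, UBE2L6, was 1.86 above the median of 1409 genes of like length in experiment 2, and HERC6, USP18, UBA7 and HERC5 were above theirs by 1.07, 0.94, 0.90 and 0.49. This comparison was chosen after seeing the data, and the part of length in the result for ISG15 was not tested further.

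**Figure D5:**
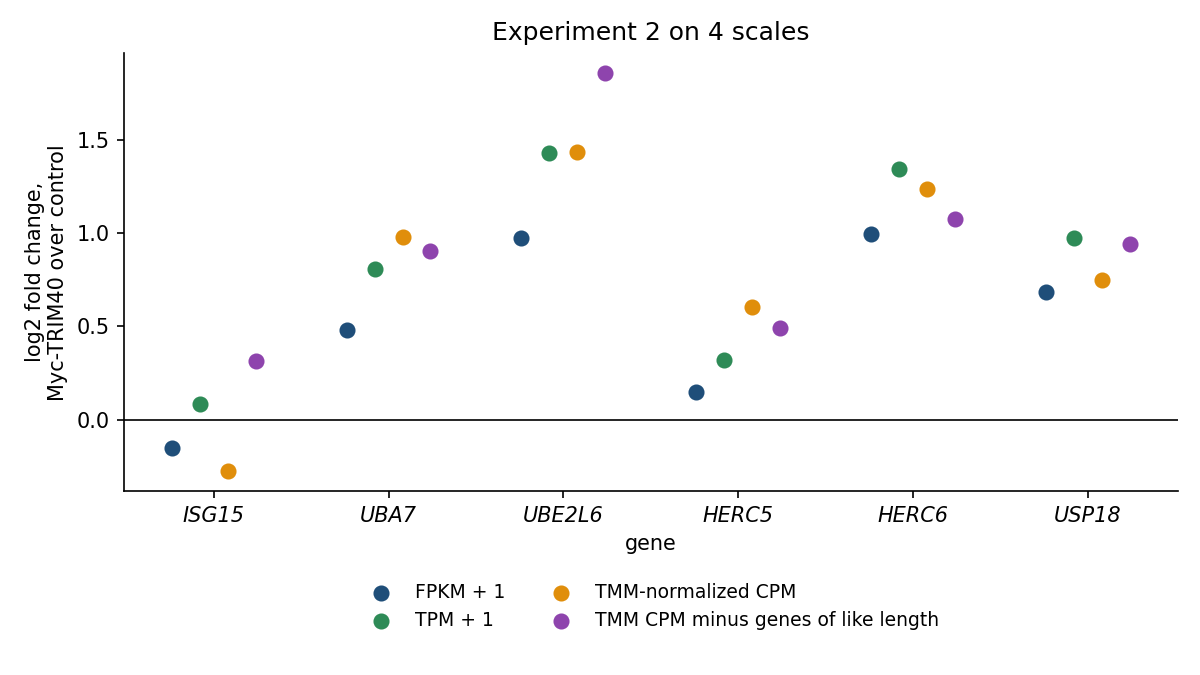
Log2 fold change of the 6 members in experiment 2 on 4 scales, with 1 library per condition and no error bars. The y axis gives Myc-TRIM40 over control, and the colors give FPKM + 1, TPM + 1, TMM-normalized CPM and TMM-normalized CPM minus the median of genes of like transcript length. ISG15 is at -0.15, 0.08, -0.28 and 0.32, and the enzymes are above 0 on every scale.

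By level, which FPKM compares per length, ISG15 led in all 4 libraries. It was 23.9 times as high as USP18, the next member, in the control of experiment 1 and 46.2 times in that of experiment 2. In both controls and in the Myc-TRIM40 library of experiment 2 the order then ran from USP18 to HERC6. UBA7 and UBE2L6 followed in 1 order or the other and did not differ beyond their spread over the controls, where UBA7 was at 0.93 and 0.50 FPKM and UBE2L6 at 0.53 and 0.51 FPKM. In the Myc-TRIM40 library of experiment 1 UBE2L6 came second, ahead of HERC6, USP18, UBA7 and HERC5. Relative to UBE2L6, ISG15 was 147 and 242 times as high in the controls of experiments 1 and 2, and 17.1 and 56.3 times as high in the Myc-TRIM40 libraries.

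The genes most like ISG15 were those with the smallest Euclidean distance between their log2 fold changes in the 2 experiments and its own, over 4 libraries. They were STOX1, DDX11L10, EGR2, HIST1H2BO and PAQR4, at distances from 0.09 to 0.18. The nearest member, USP18, was at 1.07 and UBE2L6 was the farthest at 3.40. STOX1 had 30 reads in the control and 244 reads with Myc-TRIM40 in experiment 1 and 66 and 58 in experiment 2, so it shared with ISG15 a single high library. PAQR4 had 734 and 5494 reads in experiment 1 and 5985 and 5628 in experiment 2, so its single low library was the control of experiment 1, unlike ISG15. DDX11L10 and HIST1H2BO had 0 reads in that control.

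Of the other enzymes reported to act on ISG15 and the close relatives of the members, 18 of 19 had a row and 18 were tested. None passed an adjusted p of 0.05 in edgeR, and TRIM25 alone had an unadjusted p under 0.05. TRIM25, a ligase of RIG-I that has also been described as an ISG15 ligase, had 26.9 and 50.5 FPKM in experiment 1 and 16.7 and 26.2 FPKM in experiment 2, for control and Myc-TRIM40. Its log2 fold change was 0.70 (standard error 0.22, edgeR adjusted p = 0.888). On FPKM + 1 both Myc-TRIM40 libraries exceeded their controls by at least 1.5-fold. ARIH1, another reported partner, was at 16.4 and 16.3 FPKM in experiment 1 and 11.9 and 15.2 FPKM in experiment 2. The ubiquitin counterparts of the cascade were at similar levels, with UBA1 at log2 fold changes of -0.11 and 0.26 on FPKM + 1 and UBE2L3 at -0.08 and -0.08. HERC2, a relative of HERC5 and HERC6, was at -0.02 in experiment 1 and 0.92 in experiment 2, where HERC6 was at 3.37 and 1.00. Of the 18 genes, 1 reached 1.5-fold in experiment 1 and 4 in experiment 2, against 2.78% and 8.54% of genes tested. The median over the 18 genes was 0.01 in experiment 1 and 0.28 in experiment 2 on this scale, against 0.03 and 0.08 for all genes tested.

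Among the 7 receptor and ISGF3 genes through which type I interferon signals, 0 passed an adjusted p of 0.05 in edgeR. STAT2 and IRF9, which are subunits of ISGF3, were higher at an unadjusted p under 0.05. IRF9, the subunit that binds DNA, had 9.17 and 41.4 FPKM in experiment 1 and 8.18 and 15.9 FPKM in experiment 2. It reached 1.5-fold on FPKM + 1 in both experiments, and STAT2 did so in experiment 1. The receptor chains IFNAR1 and IFNAR2, to the second of which USP18 binds, had log2 fold changes in edgeR of 0.15 (standard error 0.21) and 0.22 (standard error 0.22).

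Of 16 proteins reported as targets of ISG15 conjugation, 0 genes passed an adjusted p of 0.05 in edgeR. MX1, EIF2AK2, which encodes the kinase PKR, and DDX58, which encodes the RNA sensor RIG-I, were higher at an unadjusted p under 0.05. On FPKM + 1 they reached 1.5-fold in both experiments. EIF2AK2 had 10.9 and 35.5 FPKM in experiment 1 and 5.97 and 13.5 FPKM in experiment 2, with a log2 fold change of 1.37 (standard error 0.24, edgeR adjusted p = 0.174). DDX58 had 2.84 and 22.2 FPKM in experiment 1 and 2.30 and 4.06 FPKM in experiment 2. These 3 are interferon-stimulated genes in their own right. IRF3 and BECN1, which are not, had edgeR log2 fold changes of -0.26 and -0.08, and the median of this fold change over the 16 genes was 0.11.

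Of 26 genes of other ubiquitin-like modifiers and their enzymes, 25 were tested. None passed an adjusted p of 0.05 in edgeR, 0 were higher and 1, the ubiquitin fusion gene RPS27A, was lower at an unadjusted p under 0.05. Their median log2 fold change was -0.01 in experiment 1 and -0.19 in experiment 2 on FPKM + 1, against 2.62 and 0.58 for the members and 0.03 and 0.08 for all genes tested. ISG15 itself was at -0.15 in experiment 2 on this scale, and transcript length was not matched in this comparison. UBD, which encodes the interferon-inducible modifier FAT10, had 2 reads in the control and 27 reads with Myc-TRIM40 in experiment 1 and 0 reads in both libraries of experiment 2, and was too low to be tested. NEDD8 had 121 and 120.5 FPKM in experiment 1 and 179 and 129 FPKM in experiment 2.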

How the data were processed

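RNA was measured in 2 control and 2 Myc-TRIM40 libraries of HT-29 cells, from TruSeq Stranded mRNA libraries. The authors deposited whole-number read counts without normalization, and FPKM, for 63714 RefSeq transcripts, and for experiment 2 also TPM. The other deposited values used were transcript lengths. The submitters' processing notes name HISAT2 2.1.0, StringTie 1.3.4d and build hg19. TPM of experiment 1 was computed here from FPKM.

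Transcripts were summed per gene. Genes were tested with edgeR 4.0.16 (glmQLFTest, TMM, filterByExpr, Benjamini-Hochberg) in R 4.3.3 with the experiment number as a block, which was fixed in the main design because the study computed fold changes within an experiment. Same-numbered libraries deviated together from their condition means (correlation 0.45 across 14868 genes), which with 2 pairs hints at pairing and does not show it. All 6 members passed the filter. Standard errors given with edgeR were computed here as the absolute log2 fold change over the square root of the test's F statistic. The labels and the study name no difference between the experiments beyond independent repeats. The overexpressing cells are headed TRIM40 in the deposited values of experiment 1 and Myc-TRIM40 in those of experiment 2. TRIM40 RNA and the fold changes of short genes also differed between the experiments, as given above. With the block, a p-value sets the fold change over both experiments against a variance, to which the disagreement of the 2 experiments contributes. The main fit had 1 residual degree of freedom and a common dispersion of 0.0484. The variance of each gene also drew on that of other genes, with a median of 7.44 prior degrees of freedom. An exact permutation test of 2 against 2 cannot go below a two-sided p of 0.333 and was not used. CPM on the log2 scale had a prior count of 2, and FPKM and TPM a pseudocount of 1. The fits were tested on simulated data. Alternatives were no block, DESeq2 1.42.0, limma 3.58.1, upper-quartile normalization, no filter, TPM, a pseudocount of 0.1, a threshold of 2 and each experiment left out. Motifs were searched in RefSeq promoter windows of GRCh38.p14, whose coordinates were not mixed with those of hg19. Named genes were the members, TRIM40, USP41, genes of fixed lists (those that passed 1.5-fold in both experiments or the test, and up to 4 examples a list) and the 5 genes nearest to ISG15. Members and lists were chosen with earlier results of these data known. Some genes of the lists are not reported here.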

Additional observations from a re-analysis of the deposited data

Results flagged for a closer look

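ISG15 went opposite ways in the 2 experiments, with a log2 fold change in TMM-normalized CPM of 2.90 in experiment 1 and -0.28 in experiment 2. Each experiment holds 1 library per condition, so the difference was not tested. None of the 5 enzymes did so on this scale. For ISG15 in experiment 2 the value was above 0 on TPM + 1, at 0.08, and relative to genes of like length, at 0.32.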

How the results depend on the processing

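Across the 5 other fits the 6 members kept the direction of the main test in 30 of 30 cases and their side of an adjusted p of 0.05 in 29 of 30. The exception was USP18 in DESeq2, so that 1 member passed there against 0 in edgeR, and the cause was not tested. With no replicate block 0 members passed, with 4 at an unadjusted p under 0.05, and the log2 fold change of ISG15 was 1.72. In edgeR the unadjusted p of HERC5 was 0.0104 with the block and 0.0881 without it. The block changed no member's side of an adjusted p of 0.05. Over all fits the log2 fold change of UBE2L6 was between 2.76 and 4.83 and that of HERC5 between 0.51 and 1.65, lowest with limma on log2(FPKM + 1). Of the 3 members at least 1.5-fold higher in both experiments on FPKM + 1, 0 reached a threshold of 2 on that scale, although UBE2L6 and HERC6 were 2.76-fold and 2.36-fold higher in normalized reads of experiment 2, and with 1 experiment counted the number ranged from 3 to 6. With 1 experiment left out the log2 fold change of ISG15 ranged from -0.28 to 2.90, reversed where experiment 1 was left out. In experiment 2 alone it reversed on TPM, at 0.082, and relative to genes of like length, at 0.32. With each experiment left out there is 1 library per condition and no test. UBE2L6 and HERC5 had the fewest reads of the members in the controls, between 45 and 83.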
